A study of Gallus gallus with 6 samples.

Results

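The cytosolic ribosomal protein genes of chicken blood leukocytes were described on 6 arrays. A gene was taken where the RefSeq accession of its probes mapped to a symbol of the RPL or RPS series or to RPLP0, RPLP1, RPLP2 or RPSA, S6 kinases and genes on chromosome Z being left out. This rule found 47 of the 5382 named genes on the array, 31 with RPL symbols (large subunit) and 16 with RPS symbols (small subunit), on 21 chromosomes. RPLP2 and RPSA themselves were not analysed here. RPSAP58, which the gene table lists with the synonym RPSA, is no member but was measured. The 47 genes had 97 probes, all of them well above background on all 6 arrays, and each gene is given by its brightest probe unless stated.

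Ribosomal proteins are the protein parts of the particle that translates mRNA. In vertebrates their mRNAs are among the most abundant of a cell and share a pyrimidine-rich start, the terminal oligopyrimidine motif, through which growth signals acting on the kinase mTOR switch their translation on and off together. Free ribosomal proteins are unstable, and some of them, RPL5 among them, bind and inhibit the p53 ligase MDM2 when assembly fails. In blood, loss of 1 copy of genes such as RPS24, RPL35A and RPL5 causes Diamond-Blackfan anaemia in human, a failure of red cell precursors. Unlike those of mammals, red cells and thrombocytes of birds keep a nucleus.

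The samples were 3 labelled male and 3 labelled female, all of them leukocytes that a Ficoll density step had parted from wing-vein blood; the birds were 1 to 2 months old by the design text. The series title speaks of transgenic and non-transgenic birds, but the labels of these samples name no strain, transgene or treatment, and do not say whether each sample came from a separate bird. The p-values below therefore measure the spread between samples that may be technical replicates, and the number of arrays limits their precision. Each 1-colour array held 43803 spots apart from controls; no spot was saturated, and 79.0% to 83.1% stood well above background. Slide and label cannot be told apart, because all male-labelled libraries shared 1 slide and all female-labelled libraries shared another. Values are log2 of the processed spot signal less that array's 75th percentile, so 0 is the 75th percentile. A value holds the affinity of its probe, so genes are compared only across libraries. Leukocyte markers were present, with the T cell receptor chain CD3D at 7.73 to 8.08 in male-labelled and 7.53 to 8.11 in female-labelled libraries. The globin gene HBA1, of red cells, read 7.31 to 8.30 in male-labelled and 8.0 to 8.27 in female-labelled libraries.

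The libraries labelled male 3 and female 3 went against their labels. HINTW, a gene of the female-specific W chromosome, read 4.58, 4.48 and 6.99 in the libraries labelled male 1, 2 and 3, against 6.61, 6.47 and 4.65 in those labelled female 1, 2 and 3. Results between the sexes are therefore also given without those 2 libraries, a choice that rested on HINTW.

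The ribosomal protein genes varied together, and more among the libraries labelled female than among those labelled male. Their range over the 6 libraries had a median of 0.56 log2, close to the 0.67 log2 of all features and the 0.60 log2 of all named genes. The library labelled female 3 was the highest of the 6 in 42 of 47 genes. The share was 18.1% over all 29509 features tested and 22.6% over all named genes. The library labelled female 1 or female 2 was the lowest in 44, against 34.0% of all features and 44.8% of named genes. Averaged over the 47 genes, the deviation from a gene's own mean was 0.01, 0.10 and 0.07 log2 in the male-labelled libraries, and -0.29, -0.13 and 0.23 log2 in the female-labelled ones. The male-labelled libraries thus lay between female 2 and female 3 and close to each other. The distance of female 3 from female 1 had a median of 0.53 log2 (1.45-fold), while the male-labelled libraries spanned a median of 0.16 log2 and the female-labelled ones 0.54 log2. In 45 of 47 genes the SD was larger among the female-labelled than among the male-labelled libraries, against 60.6% of all features. The same held in 12 of 14 translation factors and like mRNAs. It also held in 28 of 36 mitochondrial ribosomal protein genes and 15 of 15 ribosome assembly genes.

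Genes of both subunits had the same order of libraries within the female-labelled group. The mean deviations of the 31 large subunit genes were 0.02, 0.11 and 0.06 log2 in the male-labelled libraries and -0.29, -0.13 and 0.23 log2 in the female-labelled ones. Those of the 16 small subunit genes were 0.01, 0.08 and 0.09 log2 in the male-labelled and -0.29, -0.12 and 0.23 log2 in the female-labelled libraries. Female 3 was the highest library in 29 large and 13 small subunit genes. The subunit was taken from the symbol, so the small subunit genes include RPS19BP1 and the large ones RPL7L1 and RPL3L, described below. The difference between the subunits was not tested.

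**Figure D1:**
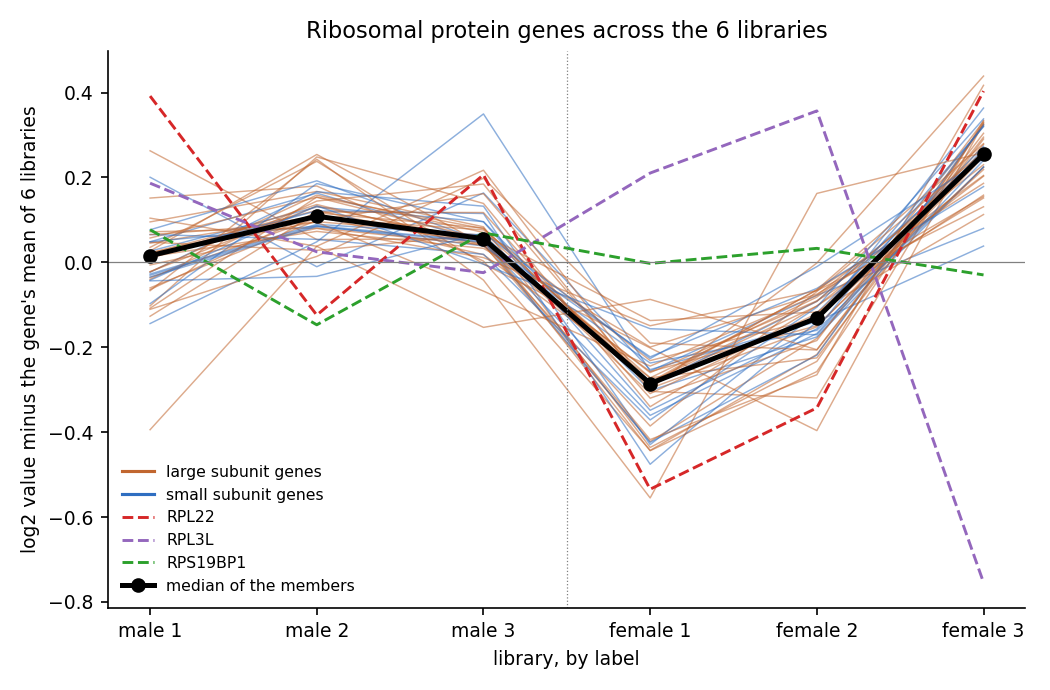
Deviation of each of the 47 genes from its own mean over the 6 libraries (log2, vertical axis) by library (horizontal axis, male-labelled left); thin lines are genes, colour gives the subunit, the black line is the median, and lines only join values of a gene. Most genes were lowest in the library labelled female 1 and highest in female 3, while RPL3L was lowest in female 3 and RPS19BP1 was nearly flat.

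The same order within the female-labelled libraries was present before scaling. In log2 signals that were not scaled between arrays, the members' mean deviations were -0.02, 0.08 and 0.05 in the male-labelled libraries and -0.22, -0.04 and 0.15 in the female-labelled ones. Over all features the unscaled deviations were highest in female 1 and female 2 and lowest in female 3, at -0.05, -0.05 and -0.01 in the male-labelled and 0.12, 0.12 and -0.13 in the female-labelled libraries. Female 3 was then the highest library in 36 of the 47 genes, and after quantile normalization in 26.

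RPLP0 and RPLP1 belong to the stalk of the large subunit, which draws in the translation factors that hydrolyse GTP. RPLP0 read 5.98, 6.16 and 6.20 in the male-labelled libraries, against 5.72, 5.70 and 6.35 in the female-labelled ones. RPLP1 read 8.35, 8.33 and 8.37 in the male-labelled libraries and 8.16, 8.18 and 8.41 in the female-labelled ones, a total range of 0.25 log2. RPL12, at the base of the stalk, read 6.62, 6.97 and 6.86 in the male-labelled and 6.38, 6.62 and 6.88 in the female-labelled libraries. The groups overlapped in each of these genes, since female 3 lay with or above the male-labelled libraries.

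On their brightest probes, the Diamond-Blackfan anaemia genes named here shared the lowest and highest library of most members. RPL35A read 7.62, 7.65 and 7.47 in the male-labelled libraries, against 7.03, 7.25 and 7.79 in the female-labelled ones. RPL5, the MDM2-binding protein, read 7.16, 7.40 and 7.37 in the male-labelled and 7.0, 7.22 and 7.56 in the female-labelled libraries. In both genes female 1 was the lowest library and female 3 the highest. RPS24 did the same over a range of 0.47 log2, with a male minus female difference of 0.00 log2. Its other probe was also lowest in female 1 but highest in male 2, at 6.63, with a difference of 0.17 log2. RPS19, RPS26, RPS7, RPL11, RPL23 and RPS27A were not analysed here. RPSAP58, listed with the synonym RPSA, read 7.89, 7.97 and 7.89 in the male-labelled and 7.71, 7.87 and 8.02 in the female-labelled libraries.

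No ribosomal protein gene passed the test between the labelled sexes. With limma, a linear model fitted to all features, 0 of 47 genes passed an adjusted p of 0.05, as did 0 of 29509 features (0%). At an unadjusted p under 0.05 there were 0 of 47 genes, against 3.81% of all features, and the smallest adjusted p among the 47 was 0.948. In 43 of 47 genes the male-labelled mean was higher, against 47.4% of all features and 57.1% of named genes. The median difference of the 47 was 0.12 log2 (1.09-fold), against -0.01 for all features and 0.04 for named genes. The differences of the 47 genes were small, with SEs of 0.13 to 0.30 log2, and in none of them did the groups separate. The groups did not overlap with male-labelled libraries above in 0 of 47 genes and below in 0, against 3.84% and 4.16% of all features. Female 1 and female 2 both lay below all male-labelled libraries in 38 of the 47 genes, against 17.9% of all features. Female 3 lay above all male-labelled libraries in 42 of the 47, against 23.7% of all features.

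The median rested on the library labelled female 1. Without it the median male minus female difference of the 47 genes was 0.01 log2. Then 24 of the 47 were higher in the male-labelled mean, close to the share of 49.6% over all features. Without female 3 the median was 0.26 log2, with 45 genes higher, against 46.4% of all features. After quantile normalization it was 0.06 log2, with 38 genes higher, against 50.5%. Without scaling it was 0.07 log2, with 42 genes higher, against 38.1%. With array weights it was 0.19 log2, with 44 genes higher, against 46.3%.

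Without the libraries labelled male 3 and female 3, the male-labelled mean was higher in 44 of 47 genes, against 45.7% of all features, by a median of 0.27 log2. The groups did not overlap, with male above, in 39 genes, against 25.2% of features. At an unadjusted p under 0.05 and male higher there were 6 of 47 genes (12.8%), against 8.77% of features, a share near the background. They were RPL35A, RPL7, RPL29, RPL22L1, RPS3 and RPL39L, with differences of 0.44 to 0.51 log2, named after their values were seen. None of the 47 passed (limma, lowest adjusted p = 0.181), while 0.288% of all features did.

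**Figure D2:**
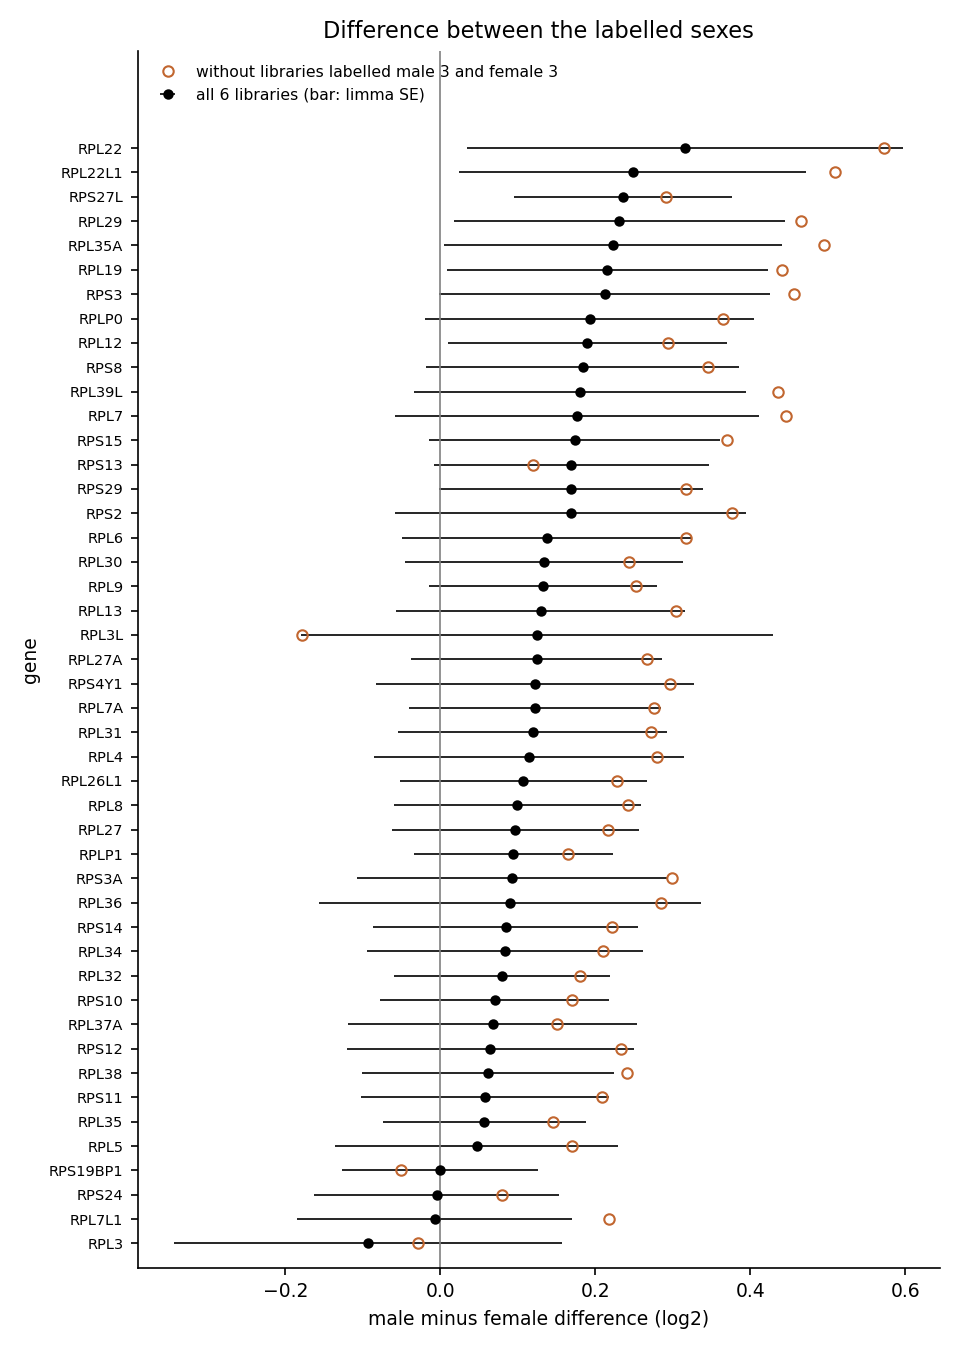
Male minus female difference (log2, horizontal axis) of 46 of the 47 genes (rows, ordered by the difference); filled points with bars are the limma difference and its SE over all 6 libraries, and open circles the difference without the libraries labelled male 3 and female 3. Filled points lie between -0.09 and 0.32 log2, and no gene passed in either fit.

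Among the 8 genes with the smallest p, RPL22 showed the largest difference. RPL22, an RNA-binding protein of the large subunit that T cell development in mouse depends on, read 5.77, 5.25 and 5.58 in the male-labelled libraries, against 4.84, 5.03 and 5.78 in the female-labelled ones. The difference, male minus female, was 0.32 log2 (SE 0.28, limma adjusted p = 0.948), and it differed from most members in that male 2 lay below male 1 and male 3. RPL22L1, its paralogue, whose expression RPL22 represses in mouse, read 4.2, 3.99 and 4.0 in the male-labelled and 3.5, 3.68 and 4.27 in the female-labelled libraries. Both paralogues were lowest in female 1 and highest in female 3, and the groups overlapped in each. RPL26L1, a paralogue of RPL26, read 7.61, 7.76 and 7.68 in the male-labelled and 7.35, 7.56 and 7.81 in the female-labelled libraries. RPL39L, a paralogue of RPL39 known in mammals for its part in sperm formation, read 6.49, 6.69 and 6.45 in the male-labelled and 6.26, 6.06 and 6.79 in the female-labelled libraries. RPL26 and RPL39 themselves were not analysed here.

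RPL29 read 7.12, 7.19 and 7.11 in the male-labelled libraries, against 6.59, 6.79 and 7.35 in the female-labelled ones, a difference of 0.23 log2 (SE 0.21). RPS3, which lines the entry of the mRNA channel, read 7.09, 7.21 and 7.06 in the male-labelled and 6.59, 6.79 and 7.34 in the female-labelled libraries. RPL19, which takes part in a bridge between the subunits, read 5.85, 6.07 and 5.86 in the male-labelled and 5.40, 5.64 and 6.10 in the female-labelled libraries. In all 3 the male-labelled libraries lay above female 1 and female 2 and below female 3.

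RPS27L had the smallest p of the members. It kept their order within the female-labelled libraries, but female 3 was not its highest library. This paralogue of RPS27, a p53 target in human, read 3.73, 3.51 and 3.69 in the male-labelled libraries, against 3.27, 3.39 and 3.56 in the female-labelled ones. The male-labelled library was higher in 8 of 9 pairs across the groups, and the difference was 0.24 log2 (SE 0.14, limma adjusted p = 0.948). Its other probe read 3.21, 2.77 and 3.18 in the male-labelled and 2.28, 2.4 and 2.83 in the female-labelled libraries, a difference of 0.55 log2 (SE 0.21). On both probes male 1 was the highest library and only male 2 lay below female 3.

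By root mean square distance from the members' median profile, RPL3L (0.51), RPL22 (0.24), RPS19BP1 (0.21), RPL3 (0.20) and RPL36 (0.18) departed most. Standard ribosomal proteins were thus among them, and RPL7L1 lay nearer, at 0.13. RPL3L, which in mammals replaces RPL3 in skeletal muscle and heart, read -4.86, -5.03 and -5.07 in the male-labelled libraries, against -4.84, -4.69 and -5.80 in the female-labelled ones. It was the only member with its lowest value in female 3, and its other probe had its lowest value there too. Both RPL3L probes were dim, below all probes of the other members, and what they bind was not tested. RPS19BP1, a nucleolar binding partner of RPS19 that the symbol rule takes in, read 2.45, 2.23 and 2.44 in the male-labelled and 2.37, 2.41 and 2.34 in the female-labelled libraries. Its total range of 0.22 log2 was the narrowest of the 47. RPL7L1, a homologue of RPL7 that acts in ribosome assembly, read 2.57, 2.5 and 2.31 in the male-labelled and 2.37, 2.26 and 2.77 in the female-labelled libraries, so its highest value was in female 3 as for most members. RPL7 itself read 6.33, 6.42 and 6.32 in the male-labelled libraries and 5.85, 6.01 and 6.69 in the female-labelled ones. RPL36 read 7.08, 7.39 and 7.10 in the male-labelled and 6.59, 7.31 and 7.40 in the female-labelled libraries, with female 2 close to male 2 and female 3. Without RPL3L, RPS19BP1, RPL7L1, RPL22L1 and RPS27L, the other 42 genes had a median difference of 0.12 log2, and female 3 was the highest library in 40 of them.

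Probes of a gene mostly showed the same order. Of the 97 probes, 82 were highest in female 3 and 89 were lowest in female 1 or female 2. In 23 of the 33 genes with several probes, the brightest probe spanned a narrower range over the 6 libraries than the median of the gene's other probes. The median range was 0.56 log2 for the brightest probes and 0.67 log2 for the 50 others. Probes of RPS14, RPL3, RPS27L and RPL31 differed most in their male minus female difference.

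RPL3, at the peptidyl transferase centre of the large subunit, had the lowest difference of the 47, and this held only for its brightest probe. That probe read 7.16, 7.59 and 7.77 in the male-labelled libraries, against 7.26, 7.55 and 7.99 in the female-labelled ones, a difference, male minus female, of -0.09 log2 (SE 0.25). Its other 3 probes gave 0.19, 0.19 and 0.23 log2 and were lowest in female 1. RPS14, of the small subunit platform, read 7.55, 7.66 and 7.64 in the male-labelled and 7.28, 7.48 and 7.83 in the female-labelled libraries on its brightest probe. Another RPS14 probe read 1.82, 1.86 and 1.53 in the male-labelled libraries and 2.58, 1.86 and 1.96 in the female-labelled ones, so that female 1 was its highest library. RPL31, near the exit of the peptide tunnel, was highest in female 3 on its brightest probe, at 7.78. Its other probe was lowest there, at 4.59, against 4.71 to 4.82 in the male-labelled libraries and 4.99 and 5.04 in female 1 and female 2. A dim RPS12 probe was likewise lowest in female 3, at -1.26. What these probes bind was not tested.

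**Figure D3:**
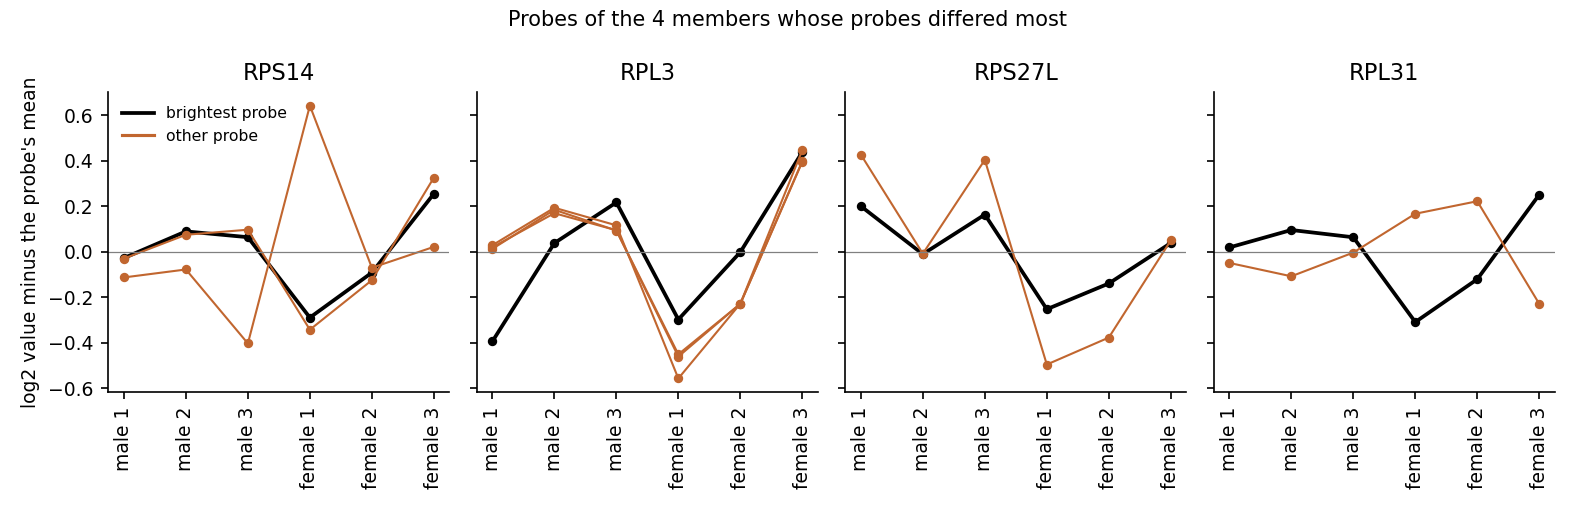
Deviation of each probe from its own mean over the 6 libraries (log2, vertical axis) by library (horizontal axis, male-labelled left) for RPS14, RPL3, RPS27L and RPL31; the black line is the gene's brightest probe and orange lines its other probes. One RPS14 probe was highest in the library labelled female 1 and the other RPL31 probe was lowest in female 3, opposite to the brightest probes.

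Ribosomal protein genes on chromosome Z, which the rule leaves out, were set beside the members. RPS6, the small subunit protein that S6 kinases phosphorylate, read 7.31, 7.56 and 6.85 in the male-labelled libraries, against 6.38, 6.65 and 7.66 in the female-labelled ones. RPL17, which lines the peptide tunnel, read 7.44, 7.53 and 6.91 in the male-labelled and 6.51, 6.67 and 7.87 in the female-labelled libraries. RPL37 read 5.99, 6.16 and 6.09 in the male-labelled and 5.61, 5.88 and 6.26 in the female-labelled libraries. In RPS6 and on the brightest RPL17 probe, male 3 lay nearer to female 1 and female 2 than to male 1 and male 2. The other RPL17 probe read 6.21, 6.31 and 6.06 in the male-labelled and 5.64, 5.85 and 6.75 in the female-labelled libraries. On that probe male 3 lay nearer to male 1 and male 2. In RPL37 male 3 lay with male 1 and male 2.

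Of the 47 members, male 3 lay nearer to the mean of male 1 and male 2 than to that of female 1 and female 2 in 43, against 50 of 198 Z-linked genes and 54.8% of all features. Female 3 lay nearer to male 1 and male 2 in 46 of the 47, in 162 of 198 Z-linked genes and in 67.6% of all features. Relative to the members' median profile, RPL17 was at 0.27, 0.26 and -0.30 log2 in the male-labelled libraries and at -0.36, -0.35 and 0.46 log2 in the female-labelled ones. RPS6 was at 0.22, 0.38 and -0.28 log2 in the male-labelled and -0.40, -0.29 and 0.33 log2 in the female-labelled libraries, while RPL37 stayed between -0.10 and 0.05 log2. On the other RPL17 probe the same quantity ran from -0.21 to 0.35 log2, with the signs of the brightest probe. Without male 3 and female 3, RPS6 differed by 0.92 log2 and RPL17 by 0.89 log2, neither passing (limma adjusted p = 0.127 and 0.106), and RPL37 by 0.33 log2. The difference between these genes and the members was not tested.

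**Figure D4:**
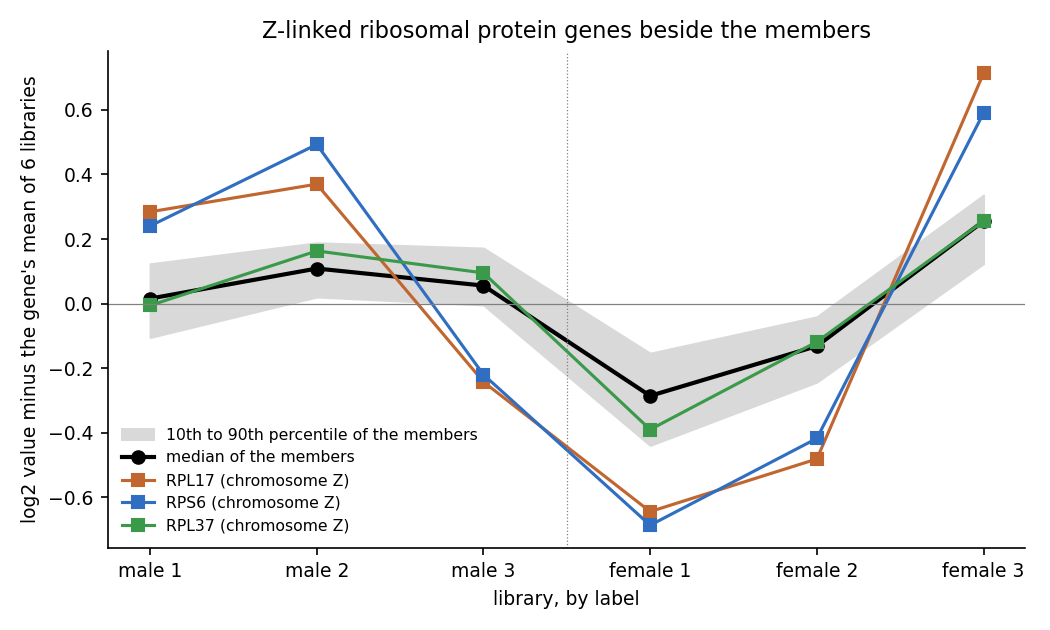
Deviation from the gene's mean over the 6 libraries (log2, vertical axis) by library (horizontal axis, male-labelled left) for RPL17, RPS6 and RPL37 of chromosome Z (squares) beside the median of the 47 members (black) and their 10th to 90th percentile (grey). RPL17 and RPS6 lay below the grey band in the libraries labelled male 3, female 1 and female 2 and above it in the other 3, and RPL37 stayed inside it.

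Other genes of translation gave the same order of libraries in part. Of 14 measured translation factors and like mRNAs, 12 were highest in female 3, and their mean deviations were -0.08, 0.20 and 0.09 log2 in the male-labelled and -0.28, -0.23 and 0.31 log2 in the female-labelled libraries. RACK1, a scaffold protein on the small subunit, read 7.82, 7.97 and 7.83 in the male-labelled and 7.55, 7.62 and 8.11 in the female-labelled libraries. NPM1, a nucleolar chaperone, read 6.39, 6.56 and 6.29 in the male-labelled and 5.73, 6.11 and 6.61 in the female-labelled libraries. None of the 14 passed limma in either direction. Their median difference was 0.14 log2, against -0.01 for all features and 0.04 for named genes. EIF3E, a subunit of an initiation factor, departed by its highest value in male 2, at 5.90, against 5.55 in female 3.

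Of 36 mitochondrial ribosomal protein genes, 8 were highest in female 3, and their mean deviations were 0.16, 0.13 and 0.00 log2 in the male-labelled and -0.22, -0.18 and 0.11 log2 in the female-labelled libraries. Of 15 measured ribosome assembly genes, 4 were highest in female 3. Their mean deviations were 0.11, 0.06 and -0.02 log2 in the male-labelled and -0.18, -0.10 and 0.12 log2 in the female-labelled libraries. Female 1 or female 2 was the lowest library in 12 of these 15 genes and 28 of the 36 mitochondrial ones. The share was 34.0% over all features. MRTO4, a large subunit assembly factor, read 3.80, 3.93 and 3.71 in the male-labelled and 3.42, 3.51 and 3.77 in the female-labelled libraries. Of the 6 measured genes of S6 kinase, TOR and p53 signalling, the p53 ligase gene MDM2 read 0.17, 0.28 and 0.03 in the male-labelled and 0.81, 0.76 and -0.04 in the female-labelled libraries, highest where the members were lowest. The kinase gene RPS6KA1 was instead highest in female 3, at 4.19, and lowest in female 1, at 3.75. None of the genes of these 3 lists passed limma in either direction, with medians of 0.19, 0.11 and -0.13 log2.

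By root mean square distance over the 6 libraries, the named autosomal genes outside the members nearest to their median profile were HDAC2, TEX10, SPCS3, COX4I1, NTMT1, CFAP410, MDH1 and RACK1. The histone deacetylase gene HDAC2, the nearest, read 2.28, 2.32 and 2.31 in the male-labelled and 1.96, 2.11 and 2.52 in the female-labelled libraries. Members made up 24 of the 100 nearest of 4652 named autosomal genes. That count describes how alike they are to a profile made from themselves.

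**Figure D5:**
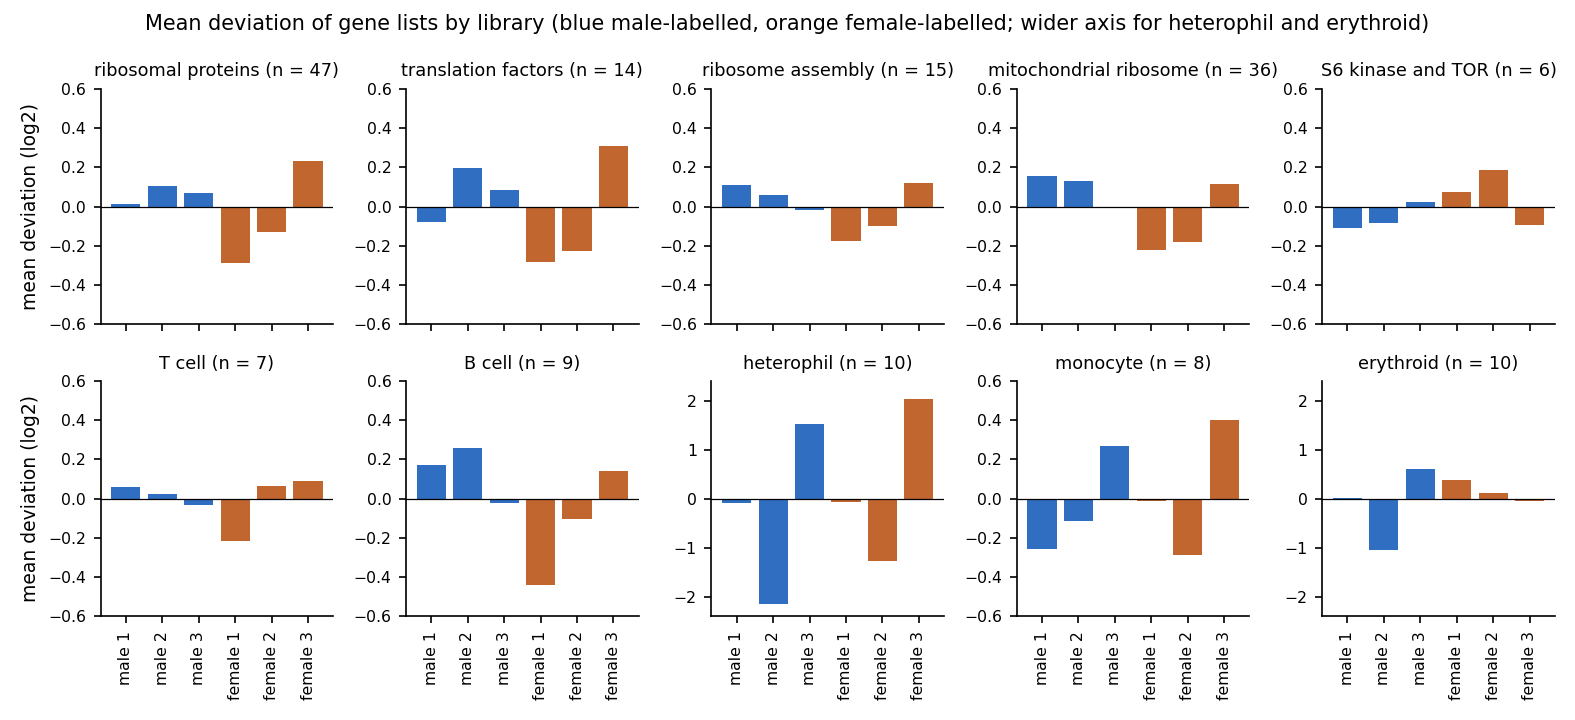
Mean deviation of gene lists (log2, vertical axis) by library (horizontal axis), with male-labelled libraries blue and left, female-labelled ones orange, n the number of measured genes, and a wider axis for heterophil and erythroid genes. Female 3 is the highest bar for ribosomal proteins (0.23), translation factors (0.31), ribosome assembly (0.12), T cell (0.09), monocyte (0.40) and heterophil genes. It is not the highest bar for the other lists shown. Heterophil genes span from -2.14 in male 2 to 2.03 in female 3.

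Markers of the cell types in blood also moved between the libraries. Fewer cells of a type and less RNA per cell cannot be told apart in such samples. All 10 measured heterophil genes were highest in female 3, as the members were, with mean deviations of -0.08, -2.14 and 1.52 log2 in the male-labelled and -0.06, -1.27 and 2.03 log2 in the female-labelled libraries. The defensin gene AvBD4 read -0.94, -3.53 and 1.23 in the male-labelled and -0.35, -2.12 and 2.10 in the female-labelled libraries. Male 2 was the lowest library in 8 of the 10 heterophil genes, but had the highest member mean among the male-labelled libraries. Of the other heterophil genes, 1 was lowest in female 1 and 1 in female 2, as most members were. By their means, the members and the heterophil list thus did not share 1 order.

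The 9 measured B cell genes were lowest on average in female 1, as the members were, with mean deviations of 0.17, 0.26 and -0.02 log2 in the male-labelled and -0.44, -0.10 and 0.14 log2 in the female-labelled libraries. The receptor chain gene CD79B read 6.05, 6.24 and 6.07 in the male-labelled and 5.39, 5.80 and 6.24 in the female-labelled libraries. Female 1 was the lowest library in 8 of the 9 genes, against 39 of the 47 members and 19.9% of all features. Some of the B cell genes, unlike the members, lie on chromosome Z. Of the 9 genes, 2 were highest in female 3, CD79B among them. Another 2 were highest in male 1, 4 in male 2 and 1 in female 1. The 7 measured T cell genes had mean deviations from -0.03 to 0.06 log2 in the male-labelled libraries. In the female-labelled ones they ran from -0.21 to 0.09 log2, with the lowest mean in female 1. Of the 7 genes, 3 were lowest in female 1, 3 in male 2 and 1 in male 3. The 10 measured erythroid genes had mean deviations of 0.01, -1.06 and 0.60 log2 in the male-labelled and 0.38, 0.12 and -0.05 log2 in the female-labelled libraries. The 8 measured monocyte genes ranged from -0.26 to 0.27 log2 in the male-labelled and from -0.29 to 0.40 log2 in the female-labelled libraries, and the 4 measured thrombocyte genes from -0.20 to 0.02 and from -0.06 to 0.15 log2. The part of cell makeup in the members' pattern was not tested.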

How the data were processed

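RNA of 6 leukocyte samples, 3 labelled male and 3 labelled female, was hybridised to 1-colour Cy3 arrays. The spot intensity deposited by the authors came from Agilent Feature Extraction 11.5.1.1 with a galGal3 grid, per the file headers; it is background-subtracted and detrended within an array but not scaled between arrays. The authors' deposited matrix held the same intensity times 1 factor per array, between 2.10 and 2.31.

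From these, log2 values less each array's 75th percentile were taken. Spots with outlier flags (3 to 12 per array) were left out, and spots of a probe averaged. Probes had to stand well above background on 3 or more of the 6 arrays. The brightest kept probe stood for its gene, and unnamed probes stayed features of their own. Names came from RefSeq accessions in a gene table; 11935 of 43603 probes matched. Since that table is of assembly GRCg7b and the array's grid is of galGal3, coordinates are left out. No sequence was used here.

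The sexes were compared with limma 3.58.1 in R 4.3.3 (lmFit, eBayes, two-sided, Benjamini-Hochberg over 29509 features, threshold 0.05), coded male minus female. Lists were looked up by symbol, defensins and cathelicidins also by synonym. The members, lists and alternatives were chosen with earlier results of these data known. Named members were the 8 with the smallest p, the 6 with the largest SD, the 4 whose probes differed most, those with a lower male mean, stalk, MDM2-binding and Diamond-Blackfan anaemia genes, paralogue pairs, and genes the symbol rule takes that are no ribosomal protein. Named non-members were the Z-linked relatives, the 8 nearest in profile, and from each list up to 4 genes, those of smallest p; RPSAP58 was added for its synonym, and the RPS12 probe after its values were seen. In simulated data for this comparison, limma recovered 22% of 50 features changed 2-fold and 74% of 50 changed 4-fold, but 2% of 50 changed 1.5-fold. Alternatives covered background correction, scaling, filters, probe summaries, test settings, the replicate number and left-out libraries. Python 3.11.15, pandas 2.3.3 and matplotlib 3.10.9 served for tables and plots. The values of 1 member are not reported here by name; it stays in all counts and medians. The normexp alternative used median spot signals.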

Additional observations from a re-analysis of the deposited data

How the results depend on the processing

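The median male minus female difference of the 47 genes stayed above 0 in all 21 alternatives, between 0.01 and 0.27 log2, and no member passed in any of them (lowest limma adjusted p = 0.181). Some alternatives could not move this median from 0.12 log2, since they leave each member's difference as it was. They were the filters on dim probes, limma's trend and robust settings, and the replicate block. Leaving out 1 library at a time, the median ran from 0.01 to 0.26 log2. The number of genes higher in the male-labelled mean then ran from 24 to 45, against 46.4% to 49.6% of all features. Of all features, 0 passed with all 6 libraries, 1 after quantile normalization, 0 to 2 with 1 library left out, and 85 without male 3 and female 3. The share of all features higher in the male-labelled mean was 47.4%, 57.2% after normexp and 38.1% without scaling, the last setting chosen after seeing the data.

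Deviations of same-numbered libraries from their labelled group means correlated at 0.01, -0.11 and -0.21, and those of different-numbered ones at -0.19 to 0.21. Those group means include male 3 and female 3, which went against their labels. The correlations therefore cannot settle whether the replicate numbers pair the samples. With the replicate block 0 features passed, so it changed no call. In this balanced design the block leaves every difference as it was. The median of 0.12 log2 and the 43 genes higher therefore could not change.

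Of 17 genes followed through the alternatives, 9 kept their sign in all. Differences of the others, not all of them near 0, changed sign as follows. With all 6 libraries RPL31 and RPL3L had differences of 0.12 log2, the same as the members' median. After normexp RPL7L1 was 0.0027, RPS19BP1 0.0081 and RPS24 0.0027 log2. With median scaling RPL7L1 was 0.0394, RPS19BP1 0.0464 and RPS24 0.0421, and after quantile normalization RPL36 was -0.0046. With the mean of a gene's probes RPL3 was 0.13, RPS14 -0.0724, RPS19BP1 0.0391 and RPS24 0.0805, and with their median RPL3 was 0.19, RPS19BP1 0.0391 and RPS24 0.0805. With array weights RPL3L was -0.18, RPL7L1 0.17 and RPS24 0.0257. Without male 3 and female 3, RPL3L was -0.18, RPL7L1 0.22 and RPS24 0.08. With 1 library left out at a time, RPL31 ran from -0.0058 to 0.27, RPL36 from -0.17 to 0.24, RPL3 from -0.27 to 0.10, RPL3L from -0.22 to 0.33, RPL7L1 from -0.11 to 0.14, RPS14 from -0.0395 to 0.23, RPS19BP1 from -0.0391 to 0.0729 and RPS24 from -0.12 to 0.12. The cause was not tested. Differences of 1.5-fold, larger than any of the 47 with all 6 libraries, were rarely recovered in simulated data.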
